A study of Trichoderma reesei with 8 samples.

Results

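Transcript levels of *Trichoderma reesei* 5 h after glucose had been added to a straw culture were compared here with those of mycelium grown in glucose from conidia for 48 h. The comparison used 5 of the 8 libraries of the series, 3 named Glucose 48 h and 2 named Straw + Glucose 5 h, and all 9126 gene models of the count files. All cultures were of the wild-type strain QM6a, at 28°C in a minimal medium with ammonium as the nitrogen source. The Glucose 48 h mycelium was harvested after growth in 1% (w/v) glucose. The Straw + Glucose 5 h mycelium had gone through the same 48 h in 1% glucose, was then washed, was kept for 24 h in fresh medium with 1% wheat straw and was harvested 5 h after glucose had been brought to 1% in that straw culture. Glucose was therefore supplied in both conditions, while culture age, the straw period, the straw still in the flask and the time in glucose differed together and cannot be told apart. The 3 straw libraries of the series, harvested at 24 h on straw without glucose, entered the model for its estimate of spread, and their levels are given as reference values.

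*T. reesei* is a filamentous fungus that secretes cellulases and xylanases, the enzymes that break down plant cell walls. Glucose switches these genes off through carbon catabolite repression, in which the zinc finger repressor CRE1 has a central part, and their expression on plant material needs the activator XYR1. A transcript level after a switch to glucose also depends on how fast the existing mRNA decays, and genes outside catabolite repression follow growth rate, nitrogen supply, surface growth and stress. Return to the 48 h glucose level is thus a question to be asked gene by gene.

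Library depth limited the comparison at the low end. The Glucose 48 h libraries held between 1337099 and 1704969 sense reads counted on genes, and the Straw + Glucose 5 h libraries held 798550 and 950244. The squared differences between the 2 Straw + Glucose 5 h libraries were at the median 96.5 times what read counting alone gives. Of 287 well-read genes 17 (5.92%) were over 2-fold apart between these libraries. On the same squared scale, pairs of Glucose 48 h libraries stood at 19.5 to 23.8 times and pairs of straw libraries at 1.42 to 8.86 times. Each ratio was taken over genes with 1000 or more reads in the pair, so the genes differed between pairs. The common coefficient of variation was 0.153 with the straw libraries and 0.185 in the model of the 5 compared libraries. Standard errors and p-values thus rest partly on the tighter straw libraries. A single gene without annotation here, estExt_fgenesh5_pg.C_270120 on scaffold 27, chosen after its values were seen, took 1.43% of the reads of the first Straw + Glucose 5 h library and 3.63% of those of the second. Levels are given as RPKM, read counts corrected for transcript length and for the total of the library, and fold changes as log2 of 5 h over 48 h from counts scaled by TMM, which sets the bulk of genes level between libraries. The median gene stood at 0.06 under this scaling and at −0.40 when only the library totals behind the RPKM were used, so differences of less than about this shift depend on the scaling, and a ratio of RPKM can differ from the fitted fold. In a culture, fewer cells with a transcript and less of it per cell cannot be told apart.

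After 5 h in glucose a large part of the transcriptome stood away from the 48 h level. Of 7211 genes with enough reads to be tested, 3521 (48.8%) passed an adjusted p of 0.05 in edgeR's quasi-likelihood test, 1850 of them higher at 5 h (25.7%) and 1671 lower (23.2%). With the library totals as the only scaling the split was 845 higher and 2419 lower. A distance of over 2-fold from the 48 h level, tested as such, was found for 1005 genes (13.9%), 563 of them higher (7.81%) and 442 lower (6.13%), while DESeq2 placed 524 genes over 2-fold apart. A model of the 5 compared libraries, which tested 6537 genes, called 3070. After TMM scaling the library values of the groups did not overlap for 4506 genes (62.5%).

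A missed test does not show that a gene had returned, so return was read from the 95% interval of the fold change. For 2010 genes (27.9%) this interval lay wholly within 2-fold of the 48 h level, and for 1365 under library totals. For 4196 genes neither statement could be made. Of these, 2387 were called different from the 48 h level but were shown neither to be over 2-fold apart nor to be within 2-fold. The plot of all genes shows these classes over the range of levels.

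**Figure D1:**
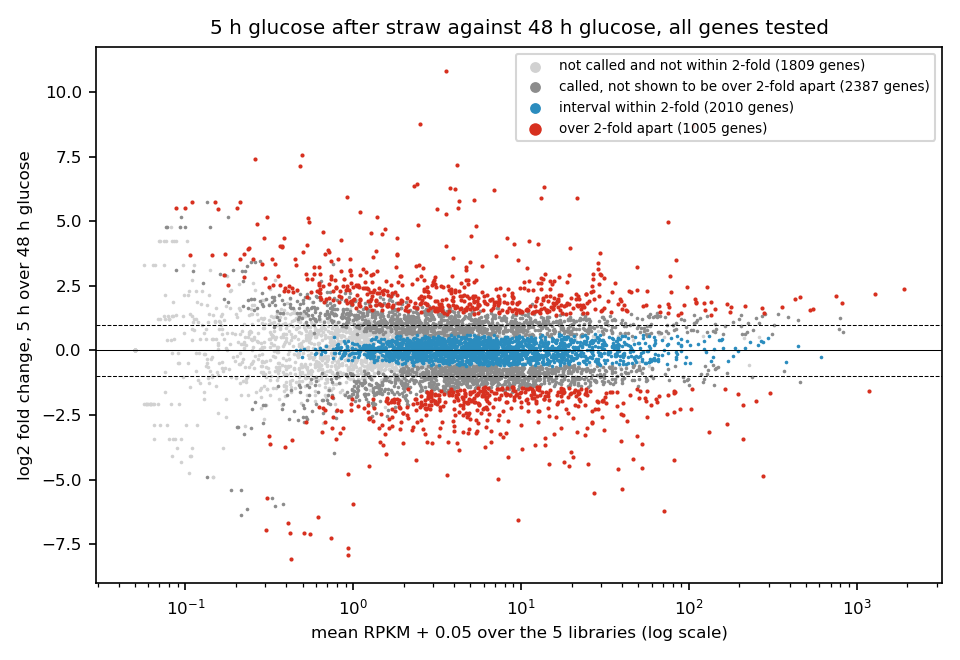
Each point is a gene, with its mean level on the x axis and its log2 fold change of 5 h over 48 h glucose on the y axis, coloured by class. Of 7211 genes tested, 563 were over 2-fold higher, 442 over 2-fold lower and 2010 within 2-fold.

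The genes that straw had moved were mostly not shown to be back at the 48 h level, although their median had moved towards it. The contrast of straw with 48 h glucose shares the 48 h libraries with the present one, so the values below are a description. Straw had put 1028 genes (14.3% of those tested) over 2-fold above the 48 h level, and at 5 h 217 of these (21.1%) were still over 2-fold above it, 94 (9.14%) were within 2-fold and 9 (0.875%) were over 2-fold below it. Their median log2 ratio to the 48 h level was 2.93 on straw and 0.95 at 5 h. Straw had put 768 genes (10.7%) over 2-fold below the 48 h level, and at 5 h 216 of these (28.1%) were still over 2-fold below it, 207 (27%) were within 2-fold and 22 (2.86%) were over 2-fold above it. Their medians were −2.04 on straw and −0.81 at 5 h. The remaining 708 and 323 genes of the 2 sets were neither shown to be over 2-fold away nor shown to be within 2-fold. Of the 708 genes 202 were called above and 29 below the 48 h level, and of the 323 genes 199 were called below and 58 above it. A gene high on straw could pass the filter on its straw reads alone. With few reads in both glucose conditions its interval is wide and can hardly lie within 2-fold. The model with the straw libraries tested 7211 genes and that of the 5 compared libraries 6537. How many of the 1028 genes entered in this way was not counted.

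The study lists 33 genes for carbohydrate-active enzymes (CAZymes) that were strongly induced on straw. At 5 h nearly all of them stood at traces in both glucose conditions. Of these 33 genes 7 were higher at 5 h than at 48 h, 1 was lower and 25 did not pass the test, with 4 over 2-fold higher and 1 within 2-fold. Over all genes tested 25.7% were higher, 23.2% were lower and 7.81% were over 2-fold higher. The list was drawn up from the 48 h and straw libraries, so low 48 h values were part of the choice. Its median log2 fold change was 0.45 under TMM and −0.02 under library totals, hence its direction depended on the scaling. All 33 entered the test with the straw libraries, and 17 of them entered a model of the 5 compared libraries alone. The rest, bgl1 among them, entered the test because of their straw reads. The highest mean level of any member at 5 h was 9.38 RPKM, while the median member had 227 RPKM on straw.

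Among the enzymes of cellulose breakdown 4 of 11 were higher at 5 h. The largest difference was in bgl2, an intracellular β-glucosidase that splits cellobiose into glucose. Its levels were 1.94, 1.43 and 1.22 RPKM in the Glucose 48 h libraries and 8.99 and 9.77 RPKM at 5 h, against a mean of 477 RPKM on straw. The groups did not overlap and the log2 fold change was 3.13 ± 0.29 (SE; adjusted p = 1.3e-07). The related cel1b had 1.38, 1.40 and 0.571 RPKM at 48 h and 1.40 and 1.44 RPKM at 5 h, close to the 48 h values, and its log2 fold change of 0.87 was a call lost in the model of the 5 compared libraries, under library totals, with no filter and without the first Glucose 48 h library, the third, the second straw library or the second 5 h library (0.45 without the last). Transcripts of bgl1, the main extracellular β-glucosidase, gave 1, 1 and 2 reads at 48 h and 3 and 9 reads at 5 h. With 3 reads allowed per library at 48 h and the 5 h reads taken as exact, bgl1 was 3.58-fold higher. Its fitted log2 fold change was 2.95, with an interval from 0.69 to 5.21, so a distance of over 2-fold was not shown. The call of bgl1 was lost when any of the 5 libraries was left out.

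The cellobiohydrolases, which release cellobiose from chain ends and are the most abundant secreted cellulases, were near the floor in both conditions. The cbh1 transcript had 1.40, 1.94 and 1.36 RPKM at 48 h and 2.83 and 1.93 RPKM at 5 h, a log2 fold change of 1.05 ± 0.33 (SE; adjusted p = 0.015) that did not pass under library totals, and the groups overlapped in RPKM. On straw its mean was 2346 RPKM, so what remained at 5 h was 0.101% of the straw level. The cbh2 transcript, at 1.04 and 0.810 RPKM at 5 h, had a log2 fold change of 1.14 and missed the threshold (adjusted p = 0.052). The endoglucanase egl2 and the copper-dependent monooxygenases cel61a and cel61b, which cut within the chain, did not pass the test, and egl1 was at 2 reads in each 5 h library.

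Among the 12 enzymes of xylan breakdown, bxl1 was the only one called higher. It encodes a β-xylosidase, which releases xylose from short xylan chains, and had 0.847, 1.11 and 0.597 RPKM at 48 h and 2.37 and 1.93 RPKM at 5 h (log2 fold change 1.81 ± 0.32, SE). The xylanase xyn2, the most abundant of the list on straw, had 2.33, 4.04 and 3.40 RPKM at 48 h and 4.73 and 2.70 RPKM at 5 h. The RPKM overlapped and the log2 fold change of 0.60 did not pass the test. The α-glucuronidase glr1 was the member within 2-fold, with a log2 fold change whose interval ran from −0.64 to 0.90. The xylanase xyn1 and the arabinofuranosidase abf2 were at 0 and 1 read at 5 h, so nothing can be said about a difference at this depth.

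Of the 10 other CAZymes, which act on mannan, pectin and side chains, 2 were higher and 1 was lower. The β-mannosidase TRIREDRAFT_62166 had 2.15, 1.95 and 1.53 RPKM at 48 h and 4.77 and 3.30 RPKM at 5 h (log2 fold change 1.55 ± 0.20, SE). The candidate exo-rhamnogalacturonase rgx1 had a log2 fold change of 1.76 ± 0.34 (SE). The β-galactosidase bga1 fell by 1.43 on the log2 scale, from 30, 21 and 24 reads to 6 and 4 (adjusted p = 0.048), a call lost without any of the 5 libraries. In all, 5 of the 33 genes were at 3 reads or fewer in every library of both conditions and 4 only at 5 h.

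The second list of the study holds 32 straw-induced genes other than CAZymes, and here a larger part stood above the 48 h level. At 5 h 20 of the 32 genes were higher, 1 was lower and 11 did not pass the test, 14 were over 2-fold higher and 1 was within 2-fold, beside backgrounds of 25.7% higher and 7.81% over 2-fold higher over all genes. Low 48 h values were part of the choice of this list too. The median log2 fold change was 1.61 under TMM and 1.10 under library totals. In the plot of the listed genes the 95% intervals of most CAZymes include 0, while the hydrophobins, glutamine synthetase and several transporters lie far above.

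**Figure D2:**
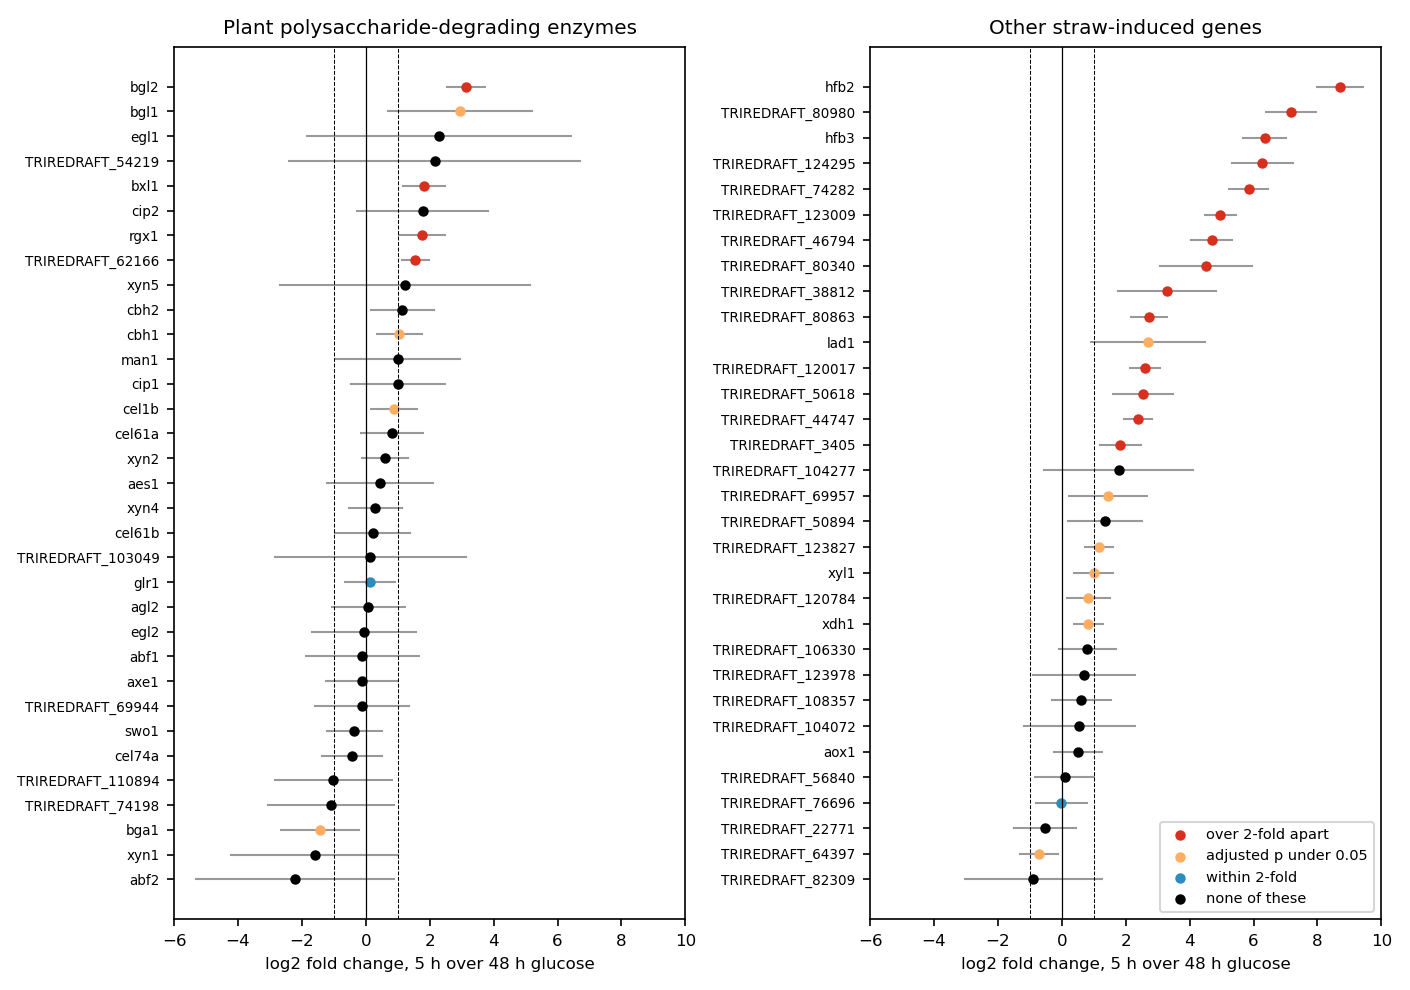
Log2 fold change of 5 h over 48 h glucose for each gene of the CAZyme list and of the list of other straw-induced genes, with its 95% interval and dashed lines at 2-fold. Of the CAZymes 4 of 33 were over 2-fold higher, and of the other genes 14 of 32.

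Surface proteins were among the genes furthest from the 48 h level. Hydrophobins are small secreted proteins that coat aerial hyphae and spores and lower surface tension. The hfb2 transcript had 0.754, 0.824 and 0.797 RPKM at 48 h, 391 and 135 RPKM at 5 h and a mean of 503 RPKM on straw. Both 5 h libraries were far above every Glucose 48 h library although they differed widely from each other, and the log2 fold change was 8.70 ± 0.34 (SE; adjusted p = 5.9e-12). The hfb3 transcript had 0.944, 0.115 and 0.554 RPKM at 48 h and 40.6 and 26.4 RPKM at 5 h (log2 fold change 6.34 ± 0.32, SE). The CFEM domain protein TRIREDRAFT_124295, of a family of cysteine-rich surface proteins, was at 2, 2 and 0 reads at 48 h and 43 and 78 reads at 5 h, at least 36.3-fold higher. The cell wall protein TRIREDRAFT_74282, an orthologue of QI74, had a log2 fold change of 5.84 ± 0.30 (SE). The remaining surface protein, TRIREDRAFT_104277, had 0 and 4 reads at 5 h and did not pass.

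Hydrophobins are also made by conidiating hyphae, and whether conidiation had a part here was not tested. The list used below is matched on annotation words and includes genes of sporulation in general, so it is not specific to conidiation. Of the 8 genes of a list for conidiation and hydrophobins 7 were tested, of which hfb2 and hfb3 were higher and TRIREDRAFT_62467, annotated as possibly required for sporulation, was lower (log2 fold change −1.71 ± 0.25, SE). Summed over the list, the level was between 25.1 and 29.4 RPKM at 48 h and 448 and 171 RPKM at 5 h. Without the hydrophobins it was between 24.2 and 27.7 RPKM at 48 h and 16.7 and 9.89 RPKM at 5 h. The conidiospore surface protein gene cmp1 had 0, 0 and 1 read at 48 h and 1 and 0 reads at 5 h, too few to be tested.

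All 6 genes of carbon and nitrogen metabolism in the list were called higher at 5 h, 2 of them over 2-fold higher. The model of the 5 compared libraries tested 5 of them and called 4. Glutamine synthetase (TRIREDRAFT_123009), which fixes ammonium into glutamine, had 8.49, 8.53 and 6.68 RPKM at 48 h and 191 and 161 RPKM at 5 h, close to the mean of 214 RPKM on straw. The groups were far apart, with a log2 fold change of 4.96 ± 0.23 (SE; adjusted p = 8.1e-11). The α-1,6-mannosyltransferase TRIREDRAFT_80340 followed with a log2 fold change of 4.52 ± 0.69 (SE). The enzymes of xylose use were much closer to the 48 h level. Xylose reductase xyl1, the first step from xylose to xylitol, had 3.03, 3.10 and 2.25 RPKM at 48 h and 6.67 and 2.17 RPKM at 5 h, so its groups overlapped in RPKM (log2 fold change 1.00). Xylitol dehydrogenase xdh1, the next step, had 3.9, 3.00 and 3.85 RPKM at 48 h and 5.17 and 4.11 RPKM at 5 h (log2 fold change 0.83). Neither call held under library totals, and that of xyl1 was also lost without the first 5 h library, at a log2 fold change of 0.38. The L-arabinitol 4-dehydrogenase lad1 was at 1, 1 and 2 reads at 48 h and 3 and 7 reads at 5 h. It was 2.99-fold higher when 3 reads are allowed per library at 48 h and the 5 h reads are taken as exact. Its call was lost without the first Glucose 48 h library or the second 5 h library, and it was not shown to be over 2-fold higher. The aldose-1-epimerase TRIREDRAFT_120784 had 1.72, 1.61 and 0.951 RPKM at 48 h and 2.77 and 1.15 RPKM at 5 h, which overlap. Its call, at a log2 fold change of 0.83, was lost in the model of the 5 compared libraries, under library totals (0.39), with no filter, without any of the Glucose 48 h libraries and without the first 5 h library (0.44).

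Transporters were higher in 7 of 11 cases. The oligopeptide transporter TRIREDRAFT_46794 had 0.213, 0.117 and 0.188 RPKM at 48 h and 4.57 and 2.39 RPKM at 5 h (log2 fold change 4.70 ± 0.30, SE), and a further one, TRIREDRAFT_120017, had 2.60 ± 0.22. The iron transporter TRIREDRAFT_38812 had a log2 fold change of 3.30 ± 0.73 (SE). The major facilitator superfamily (MFS) members TRIREDRAFT_80863, TRIREDRAFT_50618 and TRIREDRAFT_3405 had log2 fold changes of 2.73, 2.55 and 1.82. The call of the MFS permease TRIREDRAFT_69957, at 1.44, was lost under library totals and when most single libraries were left out. The xylose transporter TRIREDRAFT_104072 had 6, 6 and 3 reads at 48 h and 4 and 4 reads at 5 h and did not pass.

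Of the 3 gene regulation genes 2 were over 2-fold higher. The peptidyl arginine deiminase TRIREDRAFT_80980, of an enzyme family that turns arginine in proteins into citrulline, was at 2, 2 and 0 reads at 48 h and 98 and 128 reads at 5 h, at least 68.3-fold higher. The SNF2 family helicase TRIREDRAFT_44747, of a family that remodels chromatin, had 6.92, 7.21 and 4.51 RPKM at 48 h and 27.0 and 19.7 RPKM at 5 h (log2 fold change 2.38 ± 0.21, SE). Of the 6 oxidation genes, only the catalase/peroxidase TRIREDRAFT_123827, which breaks down hydrogen peroxide, was called, at 1.17 ± 0.21 (SE). The alcohol oxidase aox1, at a mean of 1619 RPKM on straw, had 1.01, 1.15 and 0.702 RPKM at 48 h and 1.37 and 0.683 RPKM at 5 h. The RPKM overlapped and the log2 fold change of 0.50 did not pass. The flavin-containing monooxygenase TRIREDRAFT_76696 was the member within 2-fold (interval −0.82 to 0.80). The ceramidase family protein TRIREDRAFT_64397 was the only member called lower, at −0.72, and did not pass in the model of the 5 compared libraries.

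Shares of a library do not depend on scaling between libraries. The 33 CAZymes made up 0.0262%, 0.0320% and 0.0292% of the summed RPKM at 48 h and 0.0426% and 0.0461% at 5 h, against a mean of 13.0% on straw. The ratio of the means was 1.52. The 32 other genes made up 0.0489%, 0.0522% and 0.0503% at 48 h and 0.804% and 0.598% at 5 h, a ratio of 13.9, and against 6.24% on straw. Without hfb2 and glutamine synthetase, left out after their values were seen, the ratio of the second list was 4.43. The groups did not overlap for either list, and the two-sided exact permutation p of 0.1 for each is the smallest that 3 against 2 libraries allow.

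The genes furthest above the 48 h level over the whole genome included some that were low on straw. The methyltransferase gene TRIREDRAFT_56236, whose product uses S-adenosylmethionine as methyl donor, had 0 reads in all 3 Glucose 48 h libraries, 27 to 30 reads on straw and 93 and 110 reads at 5 h, at least 61.4-fold higher than at 48 h. The amino acid transporter TRIREDRAFT_51110, annotated as IndA1, had 0.231, 0.252 and 0.209 RPKM at 48 h and 15.2 and 5.23 RPKM at 5 h (log2 fold change 5.79 ± 0.31, SE), with a mean of 40.3 RPKM on straw. The gene models estExt_Genewise1.C_80398 and TRIREDRAFT_120837, the latter a protein of unknown function with a membrane span, had log2 fold changes of 5.90 and 6.31. Beside TRIREDRAFT_56236 and these models, the 10 largest increases comprised hfb2, hfb3, the deiminase, the CFEM protein, the QI74 orthologue and 2 genes of scaffold 29.

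On scaffold 29, 3 genes with a position in the first part of the scaffold were high at 5 h and low on straw. TRIREDRAFT_69652 (scaffold 29, 45158 to 48552, RefSeq assembly v2.0), annotated as a hydroxyindole-O-methyltransferase or related methyltransferase, had 0.890, 0.631 and 0.686 RPKM at 48 h, a mean of 0.899 RPKM on straw and 33.4 and 30.1 RPKM at 5 h (log2 fold change 5.91 ± 0.23, SE; adjusted p = 5.9e-12). TRIREDRAFT_69625 (43191 to 44305), annotated as a glyoxylase, had 7, 3 and 2 reads at 48 h, 1 to 5 on straw and 73 and 102 at 5 h (5.30 ± 0.39, SE). TRIREDRAFT_69650 (27059 to 28640), an FAD-binding protein chosen after its values were seen, had 11.3, 12.2 and 6.01 RPKM at 48 h, 0.581 RPKM on straw and 48.5 and 56.4 RPKM at 5 h (2.96 ± 0.25, SE). The next positioned gene, TRIREDRAFT_69605 (48783 to 50042), also chosen after its values were seen, had 1 or 2 reads in every library of both conditions. Only 42 of the 114 genes of this scaffold had a position here, so other genes may lie between these. A further model of the same scaffold without a position, estExt_GeneWisePlus.C_290016, had 5, 4 and 1 reads at 48 h, 1 to 3 on straw and 109 and 123 at 5 h.

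Some abundant transcripts were also higher at 5 h. TRIREDRAFT_121350, related to the fungal protein CipC, and TRIREDRAFT_121372, which encodes ribosomal protein L38, were chosen after their values were seen. The former gave 5095, 3697 and 2421 reads at 48 h and 8886 and 9050 at 5 h from shallower libraries (log2 fold change 2.17 ± 0.24, SE). The latter had 272, 203 and 135 RPKM at 48 h and 415 and 376 RPKM at 5 h (1.47 ± 0.23, SE).

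**Figure D3:**
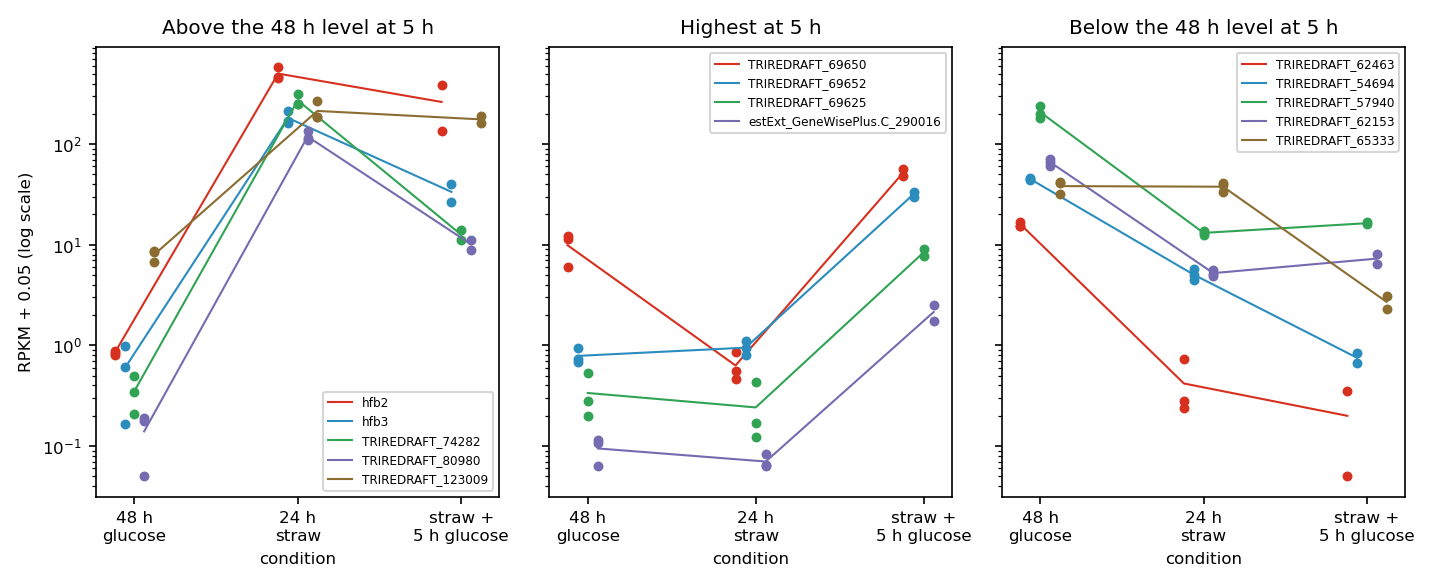
Level in RPKM plus 0.05, on a log axis, of selected genes in each library of the Glucose 48 h, straw and Straw + Glucose 5 h conditions, each point a library and each line joining the condition means. For hfb2 the 48 h libraries lie below 1 RPKM and the 5 h libraries at 391 and 135 RPKM, and for TRIREDRAFT_62153 they lie between 61.1 and 71.8 RPKM at 48 h and at 8.11 and 6.36 RPKM at 5 h.

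Most of the genes furthest below the 48 h level were low on straw too. Their mean level at 48 h ran from 1.94 to 456 RPKM. The FAD-binding protein TRIREDRAFT_62463 had 277, 276 and 262 reads at 48 h, 4 to 11 on straw and 3 and 0 at 5 h, at least 49.6-fold lower. The aryl-alcohol dehydrogenase TRIREDRAFT_54694 had 44.1, 45.5 and 45.3 RPKM at 48 h, 4.99 RPKM on straw and 0.788 and 0.616 RPKM at 5 h (log2 fold change −5.53 ± 0.28, SE; adjusted p = 1.3e-10). The GT31 glycosyltransferase TRIREDRAFT_76151 gave 2 reads in each 5 h library, at least 19.3-fold lower than at 48 h. The gene model with the highest 48 h level among these, estExt_fgenesh5_pg.C_180024, had 382, 593 and 392 RPKM at 48 h, 25.2 RPKM on straw and 15.3 and 8.30 RPKM at 5 h. Of the 10 largest decreases 7 were of models without annotation here, with log2 fold changes between −6.22 and −4.48.

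Large decreases were also found in some genes of mitochondrial and other metabolism, named here one by one and not as a group. The alternative oxidase gene TRIREDRAFT_57940, whose product passes electrons from ubiquinol to oxygen and bypasses the later respiratory complexes, had 241, 184 and 201 RPKM at 48 h, 13.1 RPKM on straw and 15.9 and 16.8 RPKM at 5 h (log2 fold change −3.17 ± 0.24, SE). Malate dehydrogenase TRIREDRAFT_62153, which interconverts malate and oxaloacetate and was chosen after its values were seen, had 61.1, 71.8 and 66.6 RPKM at 48 h, 5.18 RPKM on straw and 8.11 and 6.36 RPKM at 5 h (−2.75 ± 0.22, SE). In both genes the 5 h libraries lay near the straw level. COX17, a copper chaperone for cytochrome c oxidase (TRIREDRAFT_54676), was also near its straw mean, with 95.3, 93.3 and 69.9 RPKM at 48 h and 12.3 and 8.77 RPKM at 5 h (−2.57 ± 0.23, SE). The branched-chain α-keto acid dehydrogenase TRIREDRAFT_56726, of branched-chain amino acid breakdown, and the phosphatidyl synthase TRIREDRAFT_64959 had log2 fold changes of −3.33 and −3.31. In the annotation groups of central metabolism most genes were not called. Of 4 genes of the TCA and glyoxylate cycles, malate dehydrogenase among them, 1 was lower and 3 were within 2-fold. Of 6 genes of glycolysis and gluconeogenesis 1 was higher and 1 lower, and of 10 respiratory chain genes 3 were lower and 5 were within 2-fold.

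Some genes had a lower level at 5 h than in every library of the other conditions. Proline dehydrogenase (TRIREDRAFT_54564), the first enzyme of proline breakdown, had 10.4, 9.09 and 6.42 RPKM at 48 h, 10.2 RPKM on straw and 0.602 and 0.733 RPKM at 5 h (log2 fold change −3.13 ± 0.30, SE). The GH15 glycosidase TRIREDRAFT_65333, tentatively annotated as a trehalase, had 41.0, 42.1 and 31.7 RPKM at 48 h, 37.7 RPKM on straw and 2.26 and 3.05 RPKM at 5 h (−3.29 ± 0.27, SE). The NADP-dependent D-xylose dehydrogenase TRIREDRAFT_53673, which oxidises xylose, had 9.48, 9.37 and 8.23 RPKM at 48 h, 96.7 RPKM on straw and 1.08 and 1.52 RPKM at 5 h (−2.23 ± 0.28, SE). It was thus high on straw and below the 48 h level 5 h after glucose, whereas the fitted fold changes of xyl1 and xdh1 were above 0. TRIREDRAFT_54564 and TRIREDRAFT_53673 were chosen after their values were seen.

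Gene groups were drawn from the annotations given with the study's additional files, which cover part of the genome, so each group is a partial sample. They held 436 genes in 25 groups, 347 of them tested, and 92 were higher and 85 lower at 5 h, 51.0% of those tested against 48.8% of all genes. Of the 23 groups with at least 5 genes tested 12 had a median log2 fold change above 0, and 5 had one under library totals, so the direction of small positive group medians depended on the scaling. The shares of higher and lower genes in each group stand beside 25.7% and 23.2% over all genes tested.

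Groups of the translation machinery differed in their counts. Of 7 cytosolic ribosomal proteins 4 were higher and 3 were not called, with a median log2 fold change of 0.82 that was 0.33 under library totals. The ribosomal protein S26 gene TRIREDRAFT_68909 had 56.3, 39.4 and 34.6 RPKM at 48 h and 194 and 50.2 RPKM at 5 h, where the first 5 h library stood apart. Of 14 tRNA synthetases and translation factors 7 were higher and 3 lower (median 0.65, and 0.21 under library totals). A pair annotated as tryptophanyl-tRNA synthetases went in opposite directions, TRIREDRAFT_65741 at 2.29 and TRIREDRAFT_82442 at −1.39. Of 9 mitochondrial ribosomal proteins 3 were higher and 2 lower, with a median of 0.04 that was −0.40 under library totals. Ribosome biogenesis was split, with 5 higher and 4 lower of 17 and a median of 0.27 that was −0.15 under library totals. The UTP7 homologue TRIREDRAFT_65225 stood at 1.87 and the IMP4 homologue TRIREDRAFT_22611 at −1.60, both processing factors for small subunit rRNA in yeast. The multifunctional carbamoylphosphate synthase TRIREDRAFT_55928 of pyrimidine synthesis, chosen after its values were seen, had 2.46, 2.52 and 2.48 RPKM at 48 h and 8.77 and 5.46 RPKM at 5 h (1.94 ± 0.17, SE).

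Groups of protein turnover, folding and secretion also differed in their counts. Of 24 peptidases 8 were higher and 6 lower, with a median of 0.40 that was −0.051 under library totals. Of 16 proteasome and ubiquitin genes 1 was higher and 8 were lower (median −0.63), with the ubiquitin-conjugating enzyme TRIREDRAFT_55263 at −1.62. Of 18 genes of the secretion pathway 2 were higher and 8 lower (median −0.45), among them the exocyst subunit Exo70 (TRIREDRAFT_55570), which tethers secretory vesicles, with 6.65, 5.63 and 4.46 RPKM at 48 h and 1.53 and 1.14 RPKM at 5 h (−1.60 ± 0.25, SE). Of 6 chaperones 3 were lower (median −1.40), while the abundant Hsp70 gene TRIREDRAFT_55362 was within 2-fold. Of 14 short-chain dehydrogenases 1 was higher and 6 were lower (median −1.08).

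Uptake genes were mixed. Of 50 MFS transporters 15 were higher and 4 lower (median 0.70, and 0.22 under library totals). This group shares 8 genes with the list of straw-induced genes. TRIREDRAFT_69026, annotated as a sugar transporter and chosen after its values were seen, had 0, 5 and 0 reads at 48 h and 15 and 31 at 5 h. Of 10 amino acid permeases 2 were higher and 3 lower. Of 7 genes of iron and copper uptake 2 were higher, both over 2-fold, and 4 were lower (median −0.99). Their log2 fold changes ran from −1.72 to 7.41. The lowest was the copper transporter TRIREDRAFT_108749, with 95.6, 49.7 and 46.9 RPKM at 48 h and 22.1 and 8.08 RPKM at 5 h (−1.72 ± 0.27, SE). Of 8 antioxidant enzymes 3 were higher and 1 lower, and the copper/zinc superoxide dismutase TRIREDRAFT_123029, which removes superoxide, rose most, from 11.4, 12.6 and 8.58 RPKM to 48.9 and 53.5 RPKM (2.76 ± 0.22, SE; adjusted p = 2.6e-08).

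Cell wall enzymes and regulators were also called in both directions. Of 12 enzymes of the fungal cell wall 6 were higher, 4 of them over 2-fold, and 1 was lower (median 0.61, and 0.17 under library totals). Log2 fold changes in this group ran from −1.93 to 5.76. The chitinase gene TRIREDRAFT_62645 was the lower one, at −1.93. Another GH18 chitinase gene, TRIREDRAFT_65162, was called higher, and its log2 fold change was 4.33 without the second 5 h library. Of 41 Zn2Cys6 regulators, the fungal zinc cluster family, 10 were higher, 9 were lower and 11 were within 2-fold. Their log2 fold changes ran from −2.79 to 3.22. The largest decrease among them was TRIREDRAFT_78445, with 3.07, 4.10 and 3.71 RPKM at 48 h and 0.608 and 0.222 RPKM at 5 h (−2.79 ± 0.36, SE). Of 14 other regulators 5 were higher and 2 lower, and of 17 genes of DNA replication and the cell cycle 5 were higher and 3 lower. In the plot of gene groups all medians lie lower under library totals than under TMM.

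**Figure D4:**
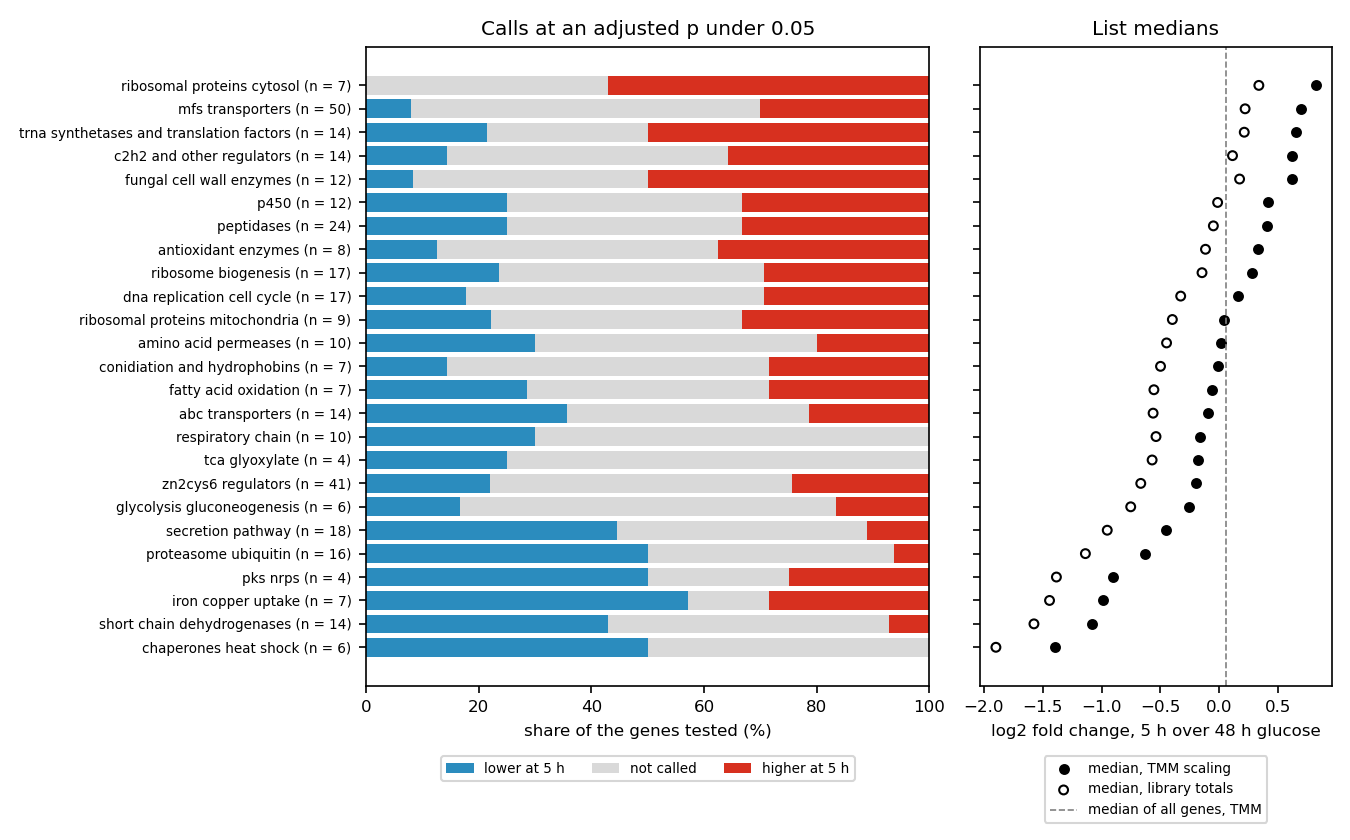
Left, the share in percent of the tested genes of each annotation group that were lower, not called or higher at 5 h than at 48 h; right, the median log2 fold change of each group under TMM (filled) and library totals (open). For cytosolic ribosomal proteins 4 of 7 genes were higher, and for proteasome and ubiquitin genes 8 of 16 were lower.

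The 5 annotated genes with the highest levels among those within 2-fold were a coiled-coil protein (TRIREDRAFT_74177), the Hsp70 gene TRIREDRAFT_55362, the 51 kDa subunit of NADH dehydrogenase (TRIREDRAFT_65559) and ribosomal proteins L8 (TRIREDRAFT_124110) and L14 (TRIREDRAFT_80211). For ribosomal protein L8 the levels were 149, 98.9 and 112 RPKM at 48 h and 130 and 82.1 RPKM at 5 h. The RPKM overlapped and the interval of its log2 fold change ran from −0.16 to 0.67. For TRIREDRAFT_65559 the levels were 174, 194 and 138 RPKM at 48 h and 82.2 and 94.3 RPKM at 5 h, with an interval from −0.89 to 0.08 under TMM. Its RPKM did not overlap, and its TMM-scaled values did.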

How the data were processed

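Reads of 50 bp from a SOLiD sequencer were aligned by the authors in BioScope, against the *T. reesei* genome of the JGI, and rRNA reads were left out. They deposited, for each gene model and library, the count of uniquely mapped sense reads and an RPKM value. The deposited RPKM correct each count for the length of the transcript and for a total of the library that is several times larger than the reads counted on genes. The labels and the paper's methods name different SOLiD models. The paper describes the replicates as separate cultures. The squared differences between straw libraries 1 and 3 were at the median only 1.42 times what read counting alone gives. Against straw library 2 the ratios were 8.86 for library 1 and 8.34 for library 3.

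Counts were tested with edgeR 4.0.16 in R 4.3.3 (quasi-likelihood, TMM, filterByExpr, 1 model of 8 libraries, Benjamini-Hochberg adjustment), the distance from 2-fold with glmTreat. Standard errors are the log2 fold change over the root of F, and 21 tested genes with no read in the 5 libraries had no interval. Summaries were made with pandas 2.3.3 and numpy 2.4.6 (Python 3.11.15), exact tests with scipy 1.17.1 and plots with matplotlib 3.10.9. A gene with 3 or fewer reads in every library of a condition was at the detection limit there, and its fold is a bound with 3 reads per library. This covers counting error at the limit only, since the reads of the other condition were taken as exact.

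Genes named were those of the study's 2 lists of straw-induced genes, the 10 largest changes in each direction (adjusted p under 0.05, a mean of at least 20 counts, no overlap), the 10 such with annotation, the largest called change per group of 5 or more genes, and the 5 most abundant annotated genes within 2-fold. The listed genes were joined to the count files on mean RPKM, and all 65 matched 1 model. Positions are those of RefSeq v2.0. Members, lists and groups were chosen with earlier results of these data known. Alternatives were DESeq2 1.42.0, library totals as scaling, no filter, the 5 compared libraries only, a replicate block, count shares and leaving out each library. The script was tested on simulated data.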

Additional observations from a re-analysis of the deposited data

How the results depend on the processing

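The split into higher and lower genes turned with the scaling: with library totals 845 genes were higher and 2419 lower, the median of the CAZyme list was −0.020, that of the other straw-induced genes 1.10, and 5 groups had a median above 0. DESeq2 placed 524 genes over 2-fold apart. The model of the 5 compared libraries, which tested 25 of the 32 other genes, gave their median as 2.36. Genes within 2-fold numbered 1365 under library totals and 1709 in the model of the 5 compared libraries, against 2010 in the main model. As shares of counts in place of RPKM the ratios of 5 h to 48 h were 1.93 for the CAZymes and 9.78 for the other genes. Leaving out each library in turn gave 5 to 8 called CAZymes with medians of 0.13 (without the first Straw + Glucose 5 h library) to 0.64, and medians of 1.24 to 1.94 for the other genes. The genes called ranged from 2795 to 3468, those over 2-fold apart from 706 to 1037 and those within 2-fold from 1491 to 1988. Leaving out a Straw + Glucose 5 h library leaves 1, which is then assumed to vary like the others. The replicate block gave 3388 called genes. The numbers did not pair the samples: deviations of same-numbered libraries correlated at −0.00073 and 0.17, and with 2 libraries at 5 h these deviations mirror each other. The causes of these shifts were not tested. No named gene that was called changed sign in any alternative. Of 102 named genes called, 77 kept the call in every alternative that tested them. Depth limits statements on most CAZymes, whose 5 h levels rest on a few reads, and intervals rest on 2 libraries at 5 h that differed more than any other pair.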
